A study of Danio rerio with 14 samples.

Results

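The cone opsins are the light-sensing proteins of cone photoreceptors, and each is the protein part of 1 visual pigment. Zebrafish cones fall into UV, blue, green and red classes, named for the light they absorb best. 6 cone opsin genes were chosen by their Ensembl identifiers among the 19859 genes of the expression table. No measured value entered the rule, but earlier results of these data were known when the choice was made. The chosen genes are opn1sw1 (UV), opn1sw2 (blue), opn1mw1 and opn1mw2 (green) and opn1lw1 and opn1lw2 (red), and all 6 were among the 19751 genes tested. The question was which cone classes lost most opsin transcript in chmru848 zebrafish at 5 days post fertilisation (dpf).

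Bulk RNAseq was performed on retinas dissected together with the retinal pigment epithelium (RPE) of 7 chmru848 and 7 wild-type AB (wt) zebrafish at 5 dpf. The chmru848 fish carry a mutant allele of chm, which encodes Rab escort protein 1, the protein that presents Rab GTPases for the lipid modification they need to bind membranes. They model choroideremia, an inherited degeneration of photoreceptors, RPE and choroid, and their embryos live only to about this age, so the retinas were taken late in a severe and widespread degeneration. Each sample, here called a retina, counted as 1 replicate.

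Opsin is made in the inner segment of a photoreceptor and carried in vesicles, with the help of Rab GTPases, to the outer segment, where it is packed into stacked membranes that are shed and renewed. On light capture it activates transducin, the G protein of phototransduction, and the signal closes the cyclic GMP-gated channels of the outer segment. Zebrafish have several green and red opsin copies that arose by tandem duplication. In the RefSeq gene order of assembly GRCz12tu, opn1mw1 is followed by opn1mw2, opn1mw3 and opn1mw4, and opn1lw1 is followed by opn1lw2. In zebrafish, opn1lw2 is switched on earlier in development than opn1lw1, which appears later and toward the edge of the retina.

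Values are given as normalized counts, obtained by undoing the variance-stabilizing transformation of the deposited log2 values. A difference is the chmru848 mean minus the wt mean on the deposited log2 scale, with its standard error (SE) from limma, and adjusted p-values are limma's with Benjamini-Hochberg adjustment over all 19751 genes, called at 0.05. Exact p-values come from the two-sided permutation test over every arrangement of the 14 retinas, whose smallest possible value is 0.000583. RSEM, the counting program, divides reads shared by near-identical genes, so the level of each single green or red copy is less certain than the sum of the copies.

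Depth, as estimated, ran from 14.2 to 29.4 M reads in chmru848 and from 18.0 to 26.3 M reads in wt. One library stood apart: wt retina 6, at 19.4 M reads, had the lowest wt value of 4 of the 6 opsins and the highest of another, so the main results are also given without it. Within chmru848, retinas 1, 2 and 4 had 1469 to 1983 genes at the floor of the table, its lowest value, against 369 to 760 in the other 4 chmru848 retinas and 317 to 628 in wt retinas. Across all tested genes the median difference was -0.06. The mutated gene did not separate the genotypes: chm (ENSDARG00000003845) had 216 to 492 normalized counts in chmru848 retinas, with a median of 282, and 264 to 432 in wt retinas, with a median of 355, so its level does not check the labels (difference -0.22, SE 0.19, adjusted p = 0.358). Every retina held cone opsin counts: the 6 opsins took 0.533 to 3.82% of all normalized counts in chmru848 retinas and 2.56 to 18.7% in wt retinas, the lowest wt share being that of wt retina 6. These are the genes under study, so they are no separate check of the tissue, and they do not check its RPE. Summed counts of RPE and pigment genes ran from 2285 to 35480 in chmru848 retinas and from 15215 to 37308 in wt retinas.

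Transcripts of 5 of the 6 cone opsins were lower in chmru848 retinas and those of opn1mw2 were higher. All 6 passed the test, in a data set in which 23.7% of all tested genes were lower and 19.9% higher, 43.7% in either direction. By the ratio of means, opn1mw1 showed the largest loss of the 6, at 18.8-fold, and opn1sw2 the smallest, at 3.36-fold. When pairs were tested within retinas, the scarce opn1lw1 was not separated from either of these. For each of the 5 lower opsins all 7 chmru848 retinas lay below the wt median, and for opn1mw2 all 7 lay above it. With all 14 retinas the genotypes overlapped for every one of the 6 opsins, beside 7.98% of all tested genes with every chmru848 retina below every wt retina and 7.57% with every one above. Without wt retina 6, every chmru848 retina was below every wt retina for 3 of the 6, opn1sw1, opn1mw1 and opn1lw2, beside 9.51% of all tested genes, and above for none of the 6, beside 8.72%. In these bulk samples, fewer cones of a class and less opsin transcript per cone cannot be told apart.

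**Figure D1:**
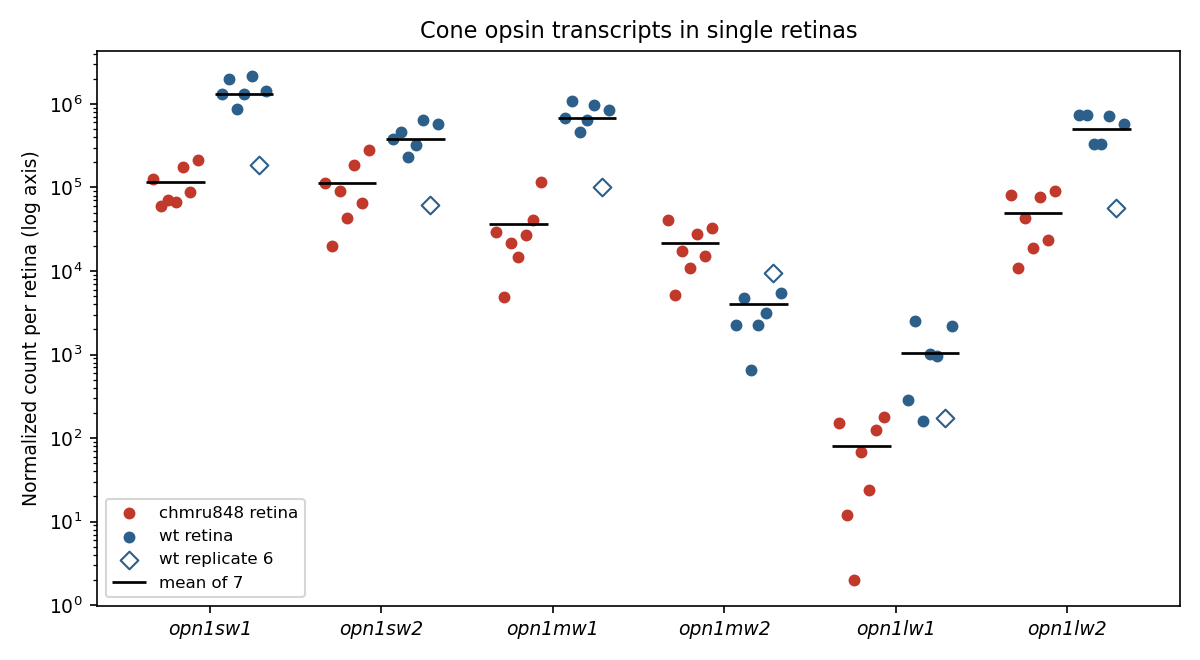
Normalized counts of each cone opsin in 7 chmru848 and 7 wt retinas, on a log axis; each point is 1 retina, the open diamond is wt retina 6 and each bar is the mean of 7. wt retina 6 lies within the chmru848 range for all 6 opsins, and opn1mw2 is the gene with higher chmru848 values.

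opn1sw1 (ENSDARG00000045677) encodes the opsin of UV cones. It had 59918 normalized counts in the lowest chmru848 retina, a median of 89257 and 215668 in the highest, against 185781, 1312357 and 2163008 in wt retinas. The ranges met only through wt retina 6, whose 185781 lay below the highest chmru848 retina. The next lowest wt retina had 880626. The mean was 115233 ± 60804 in chmru848 and 1319575 ± 660463 in wt (SD, n = 7 each), 11.5-fold lower in chmru848. The difference was -3.39 (SE 0.51, limma adjusted p = 4.07e-05) and the exact permutation p was 0.00117. With wt retina 6 left out it was -3.81 (SE 0.39, adjusted p = 1.03e-06).

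opn1sw2 (ENSDARG00000017274) encodes the opsin of blue cones and fell least. It had 19772 normalized counts in the lowest chmru848 retina, a median of 89609 and 280059 in the highest, against 61729, 377217 and 639085 in wt retinas. The genotypes overlapped with and without wt retina 6, since chmru848 retina 7, at 280059, was above wt retina 3, at 234050. The mean was 113586 ± 90962 in chmru848 and 381770 ± 199706 in wt (SD, n = 7 each). The difference was -1.90 (SE 0.58, limma adjusted p = 0.0124) and the exact permutation p was 0.0157. The value without wt retina 6 was -2.29 (SE 0.51, adjusted p = 0.00162), a 3.83-fold loss. This was the 1 opsin whose call was lost under an alternative: the adjusted p was 0.123 after quantile normalization (difference -0.97) and 0.155 with the count of genes at the table's floor as a covariate (difference -1.19).

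opn1mw1 (ENSDARG00000097008) is the first gene of the green opsin array. It had 4865 normalized counts in the lowest chmru848 retina, a median of 27069 and 115892 in the highest, against 100050, 682453 and 1098019 in wt retinas. Of the chmru848 retinas, only retina 7 reached above the lowest wt value, that of wt retina 6. The other 6 chmru848 retinas were at or below 40382. The mean was 36319 ± 36850 in chmru848 and 684000 ± 334020 in wt (SD, n = 7 each). The difference was -4.50 (SE 0.60, limma adjusted p = 1.13e-05), rank 12 from the lowest among all tested genes, and the exact permutation p was 0.00117. Leaving out wt retina 6 gave -4.91 (SE 0.52, adjusted p = 1.52e-06), a 21.5-fold loss.

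opn1mw2 (ENSDARG00000044280), the next gene of the same array, went the other way. It had 5191 normalized counts in the lowest chmru848 retina, a median of 17444 and 40559 in the highest, against 652, 3181 and 9508 in wt retinas. The highest wt value was that of wt retina 6, which was also the lowest wt retina for opn1mw1. The mean was 21355 ± 12675 in chmru848 and 4001 ± 2916 in wt (SD, n = 7 each), 5.34-fold higher in chmru848. The difference was 2.51 (SE 0.50, limma adjusted p = 0.000629) and the exact permutation p was 0.00175. On the other 13 retinas it was 2.77 (SE 0.48, adjusted p = 0.000207), and chmru848 retina 2, at 5191, still lay below wt retina 7, at 5412.

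The balance within the green array differed in every retina of one genotype from every retina of the other. In chmru848 retinas 1 to 7 there were 0.730, 0.937, 1.24, 1.37, 0.963, 2.7 and 3.58 counts of opn1mw1 for each count of opn1mw2. In wt retinas 1 to 7 there were 304, 229.8, 702, 287, 303, 10.5 and 156. wt retina 6 stood alone between the genotypes. On the log2 scale the opn1mw2 to opn1mw1 ratio was 7.03 higher in chmru848 (SE 0.80, exact permutation p = 0.000583, the smallest the design allows). The next copy, opn1mw3 (ENSDARG00000044279), was scarce, and in some retinas of both genotypes it lay under the level worth 3 reads. That level was 1.96 to 4.33 normalized counts in chmru848 and 2.30 to 4.25 in wt. opn1mw3 had 0 to 21.4 normalized counts in chmru848 retinas and 1.05 to 114 in wt retinas, the highest being wt retina 6. Its difference was -0.26 (SE 0.34, limma adjusted p = 0.569) and changed sign without wt retina 6 (0.05). opn1mw4 was not analysed here.

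opn1lw2 (ENSDARG00000044861) carried nearly all red opsin counts. It had 10790 normalized counts in the lowest chmru848 retina, a median of 43708 and 90000 in the highest, against 56262, 573640 and 743174 in wt retinas. Only wt retina 6 lay within the chmru848 range, and the next lowest wt retina had 330477. The mean was 49427 ± 33139 in chmru848 and 496633 ± 262468 in wt (SD, n = 7 each), 10.05-fold lower in chmru848. The difference was -3.35 (SE 0.59, limma adjusted p = 0.00019) and the exact permutation p was 0.00233. Omitting wt retina 6 gave -3.81 (SE 0.48, adjusted p = 8.93e-06).

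opn1lw1 (ENSDARG00000044862), the red copy switched on later, was far less abundant in both genotypes' counts and had the largest ratio of highest to lowest retina. It had 1.97 normalized counts in the lowest chmru848 retina, a median of 68.2 and 176 in the highest, against 161, 963 and 2489 in wt retinas. The value of 1.97, in chmru848 retina 3, was under the 2.98 normalized counts that 3 reads were worth there. The genotypes met at the low end of wt, where chmru848 retina 7 had 176 and wt retinas 3 and 6 had 161 and 174. The mean was 79.7 ± 71.0 in chmru848 and 1038 ± 957 in wt (SD, n = 7 each), 13.02-fold lower in chmru848. The difference was -2.96 (SE 0.61, limma adjusted p = 0.000744) and the exact permutation p was 0.00175. It was, without wt retina 6, -3.24 (SE 0.60, adjusted p = 0.000341). Counts this low are compressed on the deposited scale.

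**Figure D2:**
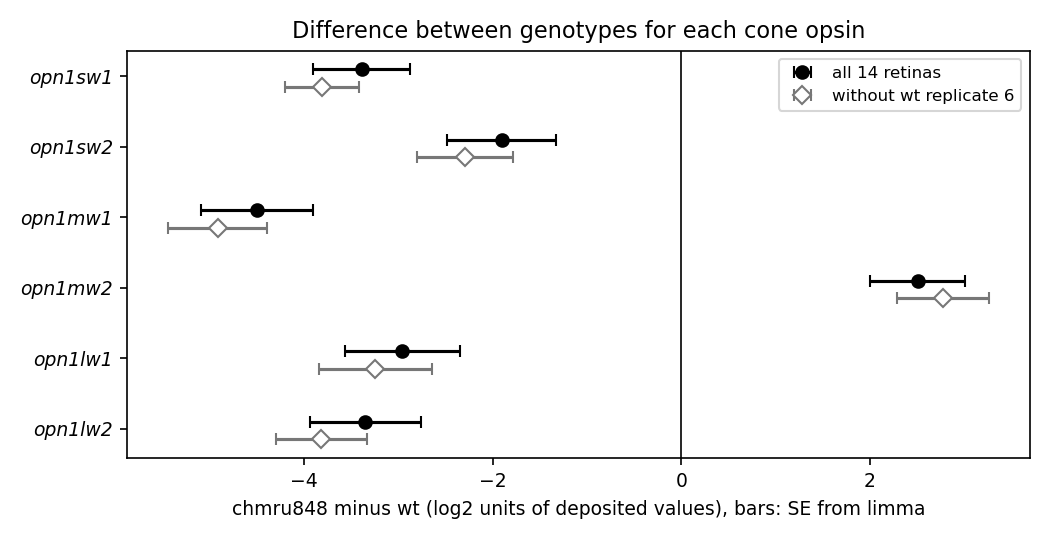
Difference in deposited log2 value, chmru848 minus wt, for each cone opsin, with all 14 retinas and without wt retina 6; points are limma estimates and bars are the SE. 5 opsins lie below 0, from -4.50 for opn1mw1 to -1.90 for opn1sw2, and opn1mw2 lies at 2.51, and each estimate is farther from 0 without wt retina 6.

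The same retinas were high or low for several opsins. chmru848 retina 2 had the lowest chmru848 value of 5 of the 6 opsins, all but opn1lw1, and chmru848 retina 7 the highest of 5, all but opn1mw2. wt retina 2 was the highest wt retina for opn1mw1, opn1lw1 and opn1lw2, and wt retina 5 for opn1sw1 and opn1sw2. The spread within chmru848 was widest for opn1lw1 and opn1mw1, whose highest retina had 89.3 and 23.8 times the lowest. It was narrowest for opn1sw1, at 3.6 times.

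Summed by class, opsin counts in chmru848 retinas were 8.38% of the wt mean for green, 8.73% for UV, 9.95% for red and 29.8% for blue. Green opsin counts averaged 57673 ± 44749 in chmru848 and 688000 ± 333004 in wt, an 11.9-fold lower mean, and red opsin counts 49507 ± 33174 in chmru848 and 497671 ± 262967 in wt, a 10.1-fold lower mean (SD, n = 7 each). The higher opn1mw2 made up part of the green sum in chmru848, so the class lost less than opn1mw1 alone. All 6 together averaged 335999 ± 221660 in chmru848 and 2887017 ± 1412288 in wt, 8.59-fold lower. Without wt retina 6 the losses were 13.6-fold for green, 13.1-fold for UV, 11.5-fold for red, 3.83-fold for blue and 9.82-fold for all 6, in the same order. With each retina left out in turn, the log2 ratio of means ran from -4.014 to -3.39 for green and -3.744 to -3.355 for UV. It ran from -3.542 to -3.153 for red and -2.153 to -1.563 for blue. The ranges of green, UV and red overlapped, and only that of blue lay apart. Such ranges show the pull of single retinas and not the spread between retinas, so they do not settle an order. The order of green, UV and red was not resolved. The sums are given without a test.

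Which opsins lost more than which others was tested on the log2 ratio of 2 opsins within each retina, where the scaling of the library cancels. There were 15 pairs, and p-values were adjusted over them. 10 of the 15 passed, 5 of them being the pairs of opn1mw2 with each other opsin, at 4.43 (opn1sw2) to 7.03 (opn1mw1). These follow from opn1mw2 being the 1 opsin that was higher.

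Blue opsin was retained relative to the main opsin of each other class. The opn1sw2 to opn1mw1 ratio was 2.60 higher in chmru848 (SE 0.27, exact permutation p = 0.000583, adjusted 0.00146), and the opn1sw2 to opn1lw2 ratio 1.45 higher (SE 0.21, with the same p-values). The opn1sw2 to opn1sw1 ratio was 1.48 higher (SE 0.28, exact permutation p = 0.00175, adjusted 0.00328). Per retina, there were 1.14, 3.03, 0.786, 1.56, 0.955, 1.37 and 0.770 counts of opn1sw1 for each count of opn1sw2 in chmru848 retinas 1 to 7, and 3.48, 4.24, 3.76, 4.09, 3.38, 3.01 and 2.46 in wt retinas 1 to 7. The genotypes overlapped only through chmru848 retina 2, at 3.03, and wt retina 6 was among the other wt retinas.

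opn1mw1 lost more than the UV and the main red opsin. The opn1sw1 to opn1mw1 ratio was 1.11 higher in chmru848 (SE 0.36, exact permutation p = 0.00583, adjusted 0.00971) and the opn1lw2 to opn1mw1 ratio 1.15 higher (SE 0.36, exact permutation p = 0.0122, adjusted 0.0184). Neither passed with wt retina 6 and chmru848 retinas 1, 2 and 4 left out, where the changes were 0.67 (adjusted exact p = 0.0643) and 0.83 (adjusted exact p = 0.169). UV and main red opsin did not differ beyond the spread between retinas: the opn1lw2 to opn1sw1 ratio changed by 0.04 (SE 0.29, exact permutation p = 0.89), and the sign of this change turned when any of 5 single retinas was left out. The 4 other pairs all involved the scarce opn1lw1 and had SEs of 0.81 to 0.98. Their changes were 0.58 for opn1lw2 to opn1lw1, 0.57 for opn1lw1 to opn1mw1, 0.54 for opn1sw1 to opn1lw1 and 2.02 for opn1sw2 to opn1lw1, and the adjusted exact p-values were 0.619, 0.615, 0.619 and 0.0572. The last passed when any 1 of chmru848 retinas 1, 4 or 6 or wt retinas 1 or 3 was left out, at an adjusted exact p of 0.0286 to 0.0429. The place of opn1lw1 in the order was therefore not resolved.

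**Figure D3:**
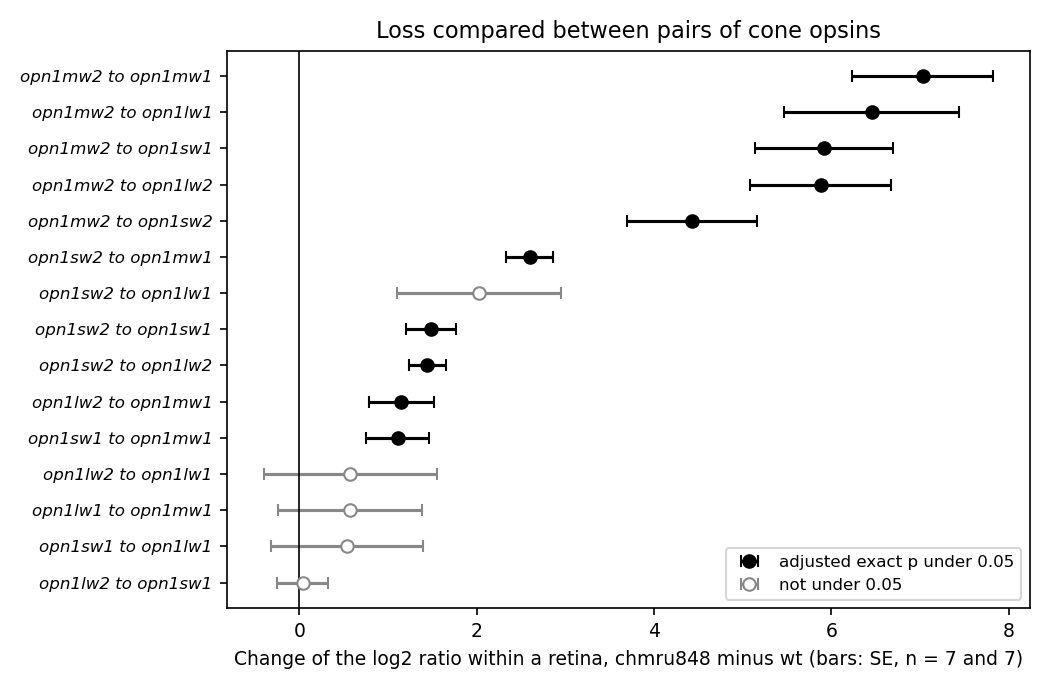
Change of the log2 ratio of 2 opsins within a retina, chmru848 minus wt, for 15 pairs; bars are the SE and filled points passed at an adjusted exact p of 0.05. The 5 pairs with opn1mw2 lie at 4.43 to 7.03, the pairs of opn1sw2 with opn1sw1, opn1lw2 and opn1mw1 at 1.45 to 2.60, and opn1lw2 to opn1sw1 at 0.04.

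These unequal losses left another mixture of opsin transcripts. Counts are not corrected for transcript length, so the shares are compared between genotypes for 1 gene at a time. opn1sw2 made up 30.9 ± 6.85% of the counts of the 6 opsins in chmru848 and 13.4 ± 2.07% in wt, and every chmru848 retina (19.7 to 38.1%) was above every wt retina (10.8 to 16.9%). opn1mw1 made up 9.92 ± 4.84% in chmru848 and 23.8 ± 1.51% in wt, with every chmru848 retina (4.84 to 17.3%) below every wt retina (21.5 to 25.7%). opn1mw2 made up 6.61 ± 1.94% in chmru848 and 0.405 ± 0.836% in wt. Every chmru848 retina (4.41 to 10.4%) was above every wt retina, of which wt retina 6 had 2.30% and the others 0.0342 to 0.158%. The share of opn1sw1 was 38.3 ± 10.7% in chmru848 and 45.6 ± 3.07% in wt, and that of opn1lw2 14.3 ± 4.02% in chmru848 and 16.8 ± 3.46% in wt, both with overlap (SD, n = 7 each). wt retina 6 had shares of 44.9% for opn1sw1, 14.9% for opn1sw2, 24.2% for opn1mw1 and 13.6% for opn1lw2, each within the range of the other wt retinas. Its low opsin counts thus came with the opsin mixture of wt except for opn1mw2.

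**Figure D4:**
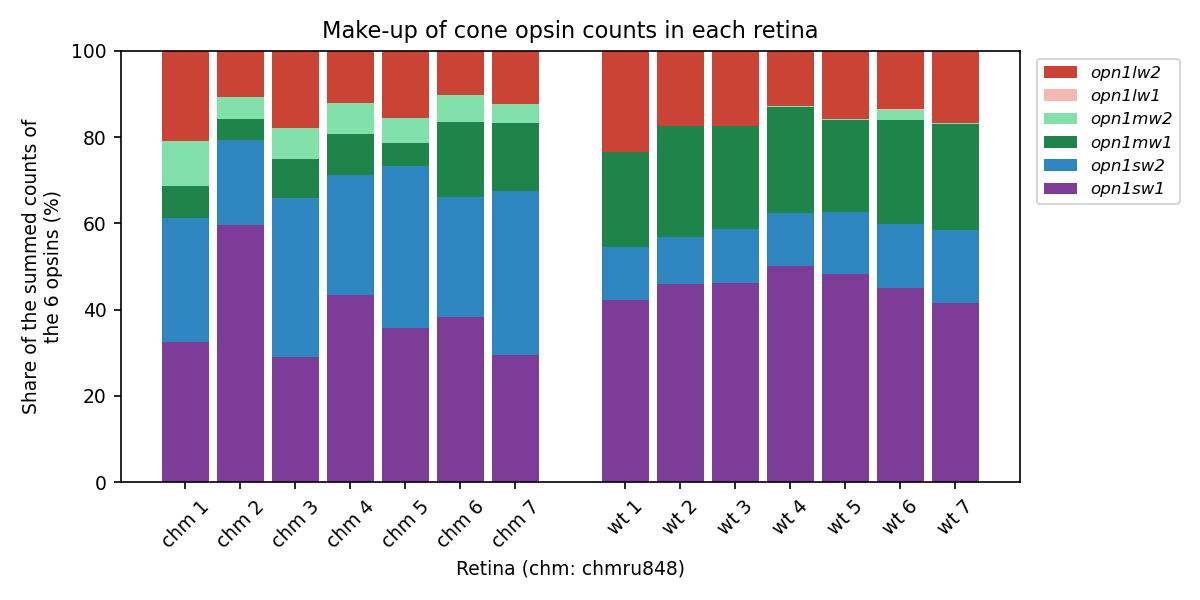
Share of each cone opsin in the summed normalized counts of the 6 opsins, in percent, for 7 chmru848 and 7 wt retinas; each bar is 1 retina. Blue opsin takes 19.7 to 38.1% in chmru848 and 10.8 to 16.9% in wt, and opn1mw2 takes 4.41 to 10.4% in chmru848 and 2.30% in wt retina 6.

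The differences of other cone phototransduction genes ran from -2.45 to 1.74, against -4.50 to 2.51 for the opsins. Of 24 genes of a fixed list, 21 symbols were matched and 21 identifiers tested, of which 10 were lower in chmru848, 2 higher and 9 did not pass, with a median difference of -0.40, beside -0.06 over all tested genes and the 23.7% lower and 19.9% higher above. Without wt retina 6 the counts were the same, 10 lower and 2 higher. Names in capitals are human symbols that the name table gives to zebrafish genes, so that paralogs share a name and are told apart by identifier.

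The transducin of cones fell with the opsins. GNAT2, its alpha subunit, averaged 34330 ± 13749 normalized counts in chmru848 and 176220 ± 82806 in wt (difference -2.25, SE 0.39, limma adjusted p = 0.000144). gnb3b, its beta subunit, averaged 53964 ± 14719 in chmru848 and 340312 ± 175069 in wt (difference -2.45, SE 0.41, adjusted p = 0.000106), and the more abundant GNGT2 copy (ENSDARG00000103543), its gamma subunit, differed by -2.09 (SE 0.33, adjusted p = 6.27e-05). Genes that end the response were divided. Of the GRK7 copies, the cone opsin kinase, ENSDARG00000055534 was lower (-1.77, SE 0.35, adjusted p = 0.000585), while the more abundant ENSDARG00000020602 averaged 4442 ± 2434 in chmru848 and 4764 ± 2835 in wt (difference -0.06, SE 0.34, adjusted p = 0.903). The RGS9 copies (ENSDARG00000037925 and ENSDARG00000045156), which speed transducin's return to rest, differed by -1.79 and -2.02 (SE 0.32 and 0.29, adjusted p = 0.000227 and 2.89e-05).

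Other steps of the same cascade were mixed in direction. PDE6C, the catalytic subunit of the cone phosphodiesterase, averaged 19390 ± 8779 in chmru848 and 16557 ± 7458 in wt (SD, n = 7 each), a difference of 0.22 (SE 0.35, limma adjusted p = 0.628) whose sign changed with wt retina 6 and chmru848 retinas 1, 2 and 4 left out (-0.22). Of the other phosphodiesterase genes of the list, PDE6H (ENSDARG00000056791) was lower (-0.83, SE 0.20, adjusted p = 0.00233). The more abundant pde6ha did not pass (-0.35, SE 0.32, adjusted p = 0.400). Nor did gucy2d, guca1c and guca1d, at -0.40, -0.10 and 0.34 (adjusted p = 0.208, 0.838 and 0.521). ARR3 (ENSDARG00000098475), a cone arrestin, which binds activated opsin and stops its signal, was higher, at 47498 ± 31048 in chmru848 and 16463 ± 8422 in wt (difference 1.56, SE 0.42, adjusted p = 0.00573). The other ARR3 copy (ENSDARG00000056511) differed by 1.20 (SE 0.48, adjusted p = 0.0504), next to the threshold. The channel subunits were divided by copy, and the copy more abundant in wt was the lower one. The more abundant CNGA3 copy (ENSDARG00000070726) averaged 1690 in chmru848 and 3410 in wt (difference -0.91, SE 0.28, adjusted p = 0.0133). The scarcer copy (ENSDARG00000012297), at 207 in chmru848 and 30.5 in wt, was higher (1.74, SE 0.31, adjusted p = 0.000219). cngb3.2, at 535 in chmru848 and 2289 in wt, was lower (-2.15, SE 0.32, adjusted p = 3.27e-05). cngb3.1, at 341 in chmru848 and 237 in wt, had a difference of 0.41 (SE 0.35, adjusted p = 0.361).

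**Figure D5:**
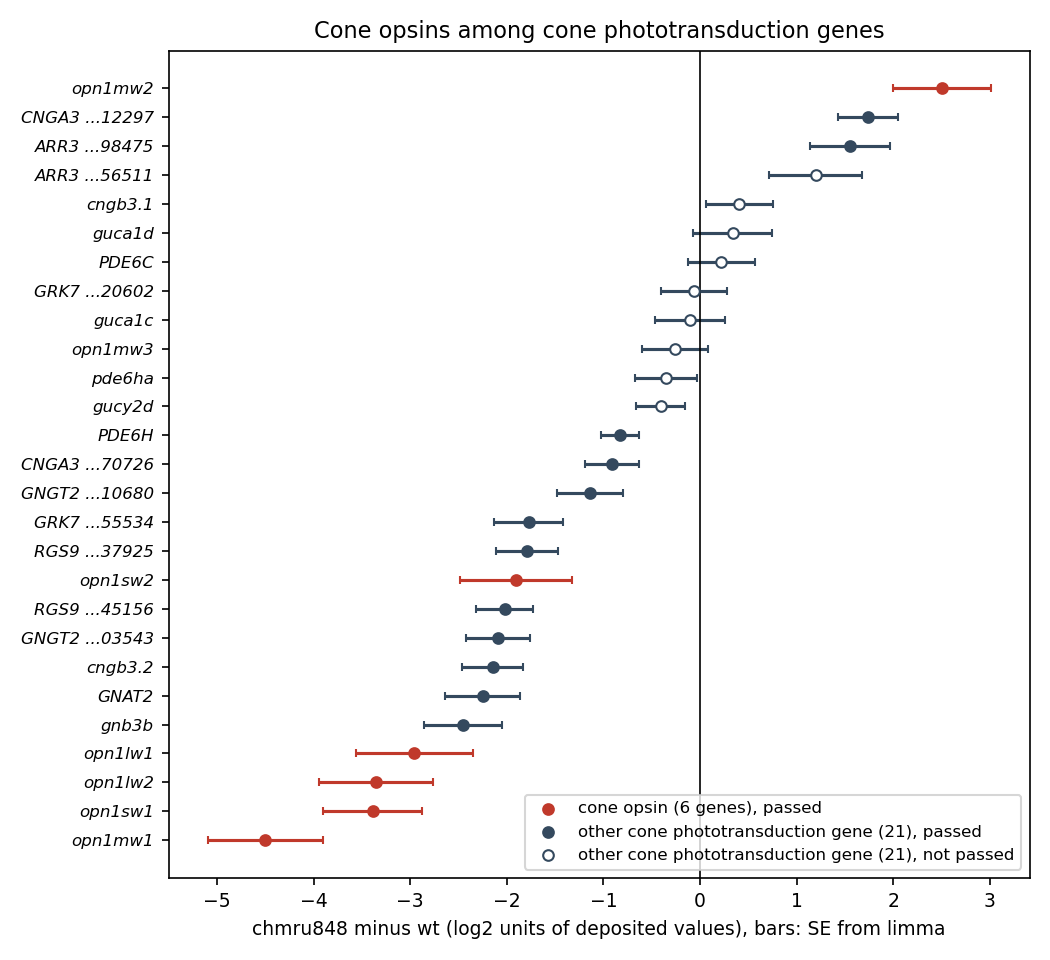
Difference in deposited log2 value, chmru848 minus wt, of the tested genes of the cone phototransduction list beside the 6 cone opsins; points are limma estimates and bars are the SE. The 5 lower opsins lie between -4.50 and -1.90, the lowest other gene, gnb3b, lies at -2.45, and opn1mw2 at 2.51 is above the highest, a CNGA3 copy at 1.74.

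Of 16 tested genes of a list of cone fate and photoreceptor transcription factors, 9 were lower, 2 higher and 5 did not pass (median -0.61), beside 23.7% lower and 19.9% higher among all tested genes. Without wt retina 6 again 9 were lower and 2 higher, and with chmru848 retinas 1, 2 and 4 also left out 7 were lower and 2 higher. The 2 higher were PRDM1, a factor that in mice favours photoreceptor over bipolar cell fate, at 3369 ± 1320 in chmru848 and 305 ± 136 in wt (SD, n = 7 each; difference 3.31, SE 0.28, limma adjusted p = 6.18e-08), and 1 NR2F1 copy (ENSDARG00000017168, difference 2.47, SE 0.26, adjusted p = 1.03e-06). The other NR2F1 copy (ENSDARG00000052695) was lower (-1.48, SE 0.17, adjusted p = 2.08e-06). Some of these factors have known roles in particular cone classes in zebrafish, not always in 1 class only. The TBX2 copies (ENSDARG00000006120 and ENSDARG00000018025), the family that promotes UV cone fate, differed by -1.08 and -1.33 (SE 0.14 and 0.15, limma adjusted p = 7.26e-06 and 2.42e-06). six7, needed for green opsin expression, differed by -0.97 (SE 0.24, adjusted p = 0.00276), and foxq2, needed for blue opsin, by -0.38 (SE 0.23, adjusted p = 0.182). gdf6a and SIX6, of the same list, were not assigned to a class here. gdf6a differed by -1.33 (SE 0.31, adjusted p = 0.00236). It was scarce, and chmru848 retinas 1 and 2, at 0 and 1.33 normalized counts, lay under their 3-read levels of 3.42 and 3.99. The SIX6 copies (ENSDARG00000031316 and ENSDARG00000025187) differed by -0.73 and -0.01 (SE 0.25 and 0.29, adjusted p = 0.0235 and 0.978). THRB, the thyroid hormone receptor needed for red cones, differed by 0.14 (SE 0.28, adjusted p = 0.703), with the sign changed when chmru848 retina 4 was left out (-0.05). OTX2, a general photoreceptor factor, differed by -1.85 (SE 0.18, adjusted p = 4.06e-07).

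Markers of rods were lower along with the opsins. Some of the RPE were lower too, in a number that depended on the setting. The part of other cells in the opsin results was not tested. The counts below stand beside 23.7% lower and 19.9% higher among all tested genes. Of 16 genes of the rod list described here, not all of which need be particular to rods, 15 were lower. The other 1, NR2E3, was higher (0.86, SE 0.30, limma adjusted p = 0.0251, lost without wt retina 6 at 0.0547). The summed counts of the 16 were 28769 to 53185 in chmru848 retinas and 84337 to 197619 in wt retinas, the lowest wt sum being that of wt retina 6. Of the mean sums of 38163 in chmru848 and 158038 in wt, 1 PRPH2 copy (ENSDARG00000038018) took 20736 and 34803. The sum thus rested more on that copy in chmru848 than in wt. Of 13 RPE and pigment genes 7 were lower and 0 higher (summed counts 2285 to 35480 in chmru848 and 15215 to 37308 in wt). Of these, 4 were lower with wt retina 6 and chmru848 retinas 1, 2 and 4 left out. With the count of genes at the table's floor as a covariate 3 were lower, beside 3900 of 19751 tested genes. Of 8 Müller glia genes 3 were lower and 1 higher (summed counts 36142 to 137738 in chmru848 and 52668 to 108074 in wt). Of 8 immune cell genes 1 was lower and 2 higher (239 to 755 in chmru848 and 216 to 433 in wt). Of 6 lens crystallin and channel genes, 2 were lower and 0 higher, and their sum varied from 70.9 to 24285 in chmru848 and from 106 to 104231 in wt, with 131 in wt retina 6. Of these markers, nrl, the rod fate factor, and 1 of 2 copies of MIP (ENSDARG00000013963), a lens channel, had a median of 0 normalized counts in chmru848 but not in wt.

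Among 249 genes whose symbol the study pairs with an identifier, those most like the mean deposited value of the 6 opsins over the 14 retinas were ppp1r3b, sod3a and ppp1r3c2b (Pearson r 0.93, 0.89 and 0.88). With each genotype centred on its own mean they were ubxn1, eno1b and ppp1r3b (r 0.87, 0.84 and 0.83). Between genotypes, ubxn1 was higher in chmru848 (difference 0.62, SE 0.22, limma adjusted p = 0.0276, kept in 24 of 29 alternatives). Its r over the 14 retinas was -0.07. The eno1b level was lower in chmru848 (difference -1.24, SE 0.47, limma adjusted p = 0.0395), a call kept in only 17 of 29 alternatives. ppp1r3b and ppp1r3c2b encode subunits that direct protein phosphatase 1 to glycogen, sod3a an extracellular superoxide dismutase and eno1b the glycolytic enzyme enolase. Unlike most of the opsins, ppp1r3b and sod3a were scarce, and both dropped out when a higher mean level was required. Their differences were -0.81 and -1.48 on the deposited scale, where low counts are compressed, and reached -2.53 and -4.79 under alternatives. The retinas share their libraries and scaling, and the genes compared are those the study had listed for their changes, so the correlations are descriptions. They were not computed without wt retina 6, whose low opsin values can weigh heavily on them.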

How the data were processed

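Retinas of 7 chmru848 and 7 wt zebrafish were grouped by the sample titles. Per the labels and the study's methods, the authors made libraries from RNA with the SMART-Seq v4 kit, trimmed reads with Trim Galore 0.6.7, aligned them with STAR 2.7.10a to GRCz11, made gene-level counts with RSEM 1.3.3 and normalised the counts with DESeq2 1.38.3. The authors deposited variance-stabilized values on a log2 scale, 4.35 to 23.1, with settings that are not given in the sources used here. The kit does not mark strand. No sequencing depth was given.

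The transformation was inverted, with the table's floor (its lowest value) as the parameter, to give normalized counts. These are not raw counts and no count test was run. Between 52.1% and 64.6% of values under 5.4 estimated reads lay within 0.05 of a whole number of reads, so depth was estimated only and the 3-read level covers counting error only. limma 3.58.1 (R 4.3.3) with a mean-variance trend was run on the deposited values of 19751 genes above that floor in 7 or more of 14 retinas, and 108 genes were left out. Opsin pairs used log2 of the normalized count plus 1 in Python 3.11.15 with numpy 2.4.6 and an exact permutation test. On simulated data limma called 50 of 50 genes shifted by -4 log2 units, 49 of 50 by -2 and 23 of 50 by -1. Gene names came from a table that matched 18974 of 19859 identifiers, and the genes named are the opsins, genes of fixed lists at least 80% matched, and those most like the opsins. chm was added as a check, and some genes of the rod list are not reported here. The opsins and lists were chosen with earlier results of these data known. Alternatives were the gene filter, variance trend, robust moderation, retina weights, centring, quantile normalization, scaling, pseudocount, replicate block, an exact rank-sum test and leaving out each retina. Added after seeing the data were leaving out 4 retinas and the count of genes at the floor as a covariate.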

Additional observations from a re-analysis of the deposited data

Results flagged for a closer look

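Single retinas were checked against their group in 42 checks, over the 6 opsins and 15 opsin pairs in both genotypes. In 9 checks a retina lay far from the rest, each time wt retina 6, which only the wt checks could set apart. Chance alone sets about 1 in 20 such groups apart, and the checks share retinas. The counts of wt retina 6 were the lowest of wt for opn1sw1 (185781), opn1sw2 (61729), opn1mw1 (100050) and opn1lw2 (56262). Its log2 ratios of opn1mw2 to the other opsins were the highest of wt, at -4.29 for opn1sw1, -2.70 for opn1sw2, -3.40 for opn1mw1, 5.77 for opn1lw1 and -2.57 for opn1lw2. No chmru848 retina was set apart in this way. Its rod sum was the lowest of wt, at 84337, and its depth, at 19.4 M reads, was within the range of the other wt retinas. The cause was not tested.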

How the results depend on the processing

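5 of the 6 opsin differences kept their direction and call in 29 of 29 alternatives, and opn1sw2 in 27 of 29. The opn1sw2 difference was -0.97 after quantile normalization (limma adjusted p = 0.123) and -1.19 with the count of genes at the table's floor as a covariate (0.155). Over the retinas left out in turn, the differences ranged from -3.81 to -3.22 for opn1sw1, -2.29 to -1.56 for opn1sw2, -4.91 to -4.11 for opn1mw1, 2.14 to 2.80 for opn1mw2, -3.26 to -2.65 for opn1lw1 and -3.81 to -3.04 for opn1lw2.

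With 4 retinas left out (chosen after seeing the data), the opn1sw1 to opn1mw1 change was 0.67, opn1lw2 to opn1mw1 0.83 and opn1lw1 to opn1mw1 -0.25. On the deposited values, opn1lw1 to opn1mw1 was 1.54 (adjusted exact p = 0.0334), opn1sw1 to opn1lw1 -0.43 and opn1lw2 to opn1lw1 -0.39. With medians, opn1sw1 to opn1lw1 was -0.077 and opn1sw2 to opn1lw1 2.11 (adjusted exact p = 0.0194). Leaving out 1 retina gave 1.37 to 2.35 for opn1sw2 to opn1lw1, -0.0069 to 0.84 for opn1sw1 to opn1lw1, -0.092 to 0.21 for opn1lw2 to opn1sw1 and -0.092 to 0.96 for opn1lw2 to opn1lw1. Signs also turned for opn1mw3 (0.016 with retina weights, 0.37 without the 4 retinas, 0.14 with the covariate, -0.38 to 0.053 without 1 retina), PDE6C (-0.22 and -0.31 without the 4 retinas and with the covariate, -8.7e-05 to 0.40 without 1 retina), THRB (-0.24 and -0.43, and -0.050 to 0.29) and the abundant GRK7 copy (0.0042 with median centring, -0.26 to 0.16 without 1 retina). The cause was not tested.

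The calls of NR2E3 and 1 ARR3 copy also depended on the setting, as did those of crx (lost in 6 of 29 alternatives, limma adjusted p = 0.0537 to 0.0727) and the scarcer GNGT2 copy (ENSDARG00000010680: -0.63 without the 4 retinas, adjusted p = 0.222, and -0.83 with the covariate, 0.11). Genes lower in chmru848 numbered 3371 to 5401 and genes higher 3132 to 4521. A replicate block left all 6 opsins called (opn1sw2 -1.90, limma adjusted p = 0.00585), with 4036 genes higher and 4791 lower. Same-numbered retinas had correlations of -0.116 to 0.101, and 0 of 7 correlated best with their own number. No pairing by number was thus seen, though this cannot show that same-numbered fish shared nothing. Among the opsins, depth limits opn1mw3, which was under the 3-read level in some retinas of both genotypes, and opn1lw1 in chmru848 retina 3 only. It also limits gdf6a in chmru848 retinas 1 and 2, and nrl and 1 MIP copy (ENSDARG00000013963), whose chmru848 medians were 0.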
